A study of Danio rerio with 2 samples.

Results

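Of 9318 kept droplet barcodes from guts of zebrafish larvae, 379 met a rule on 4 genes and are described here, 122 in the il26KO library and 257 in the WT library. Each of these members had at least 1 unique molecular identifier (UMI, which marks 1 captured RNA molecule) of cnfn, of tcnba and of icn, at least 5 UMIs of cnfn and tcnba together, and no UMI of hoxb13a. A barcode was kept when it had at least 500 detected genes and at most 25% of its UMIs in mitochondrial genes. The members were chosen by the measured counts of these 4 genes, and all other genes were read in the same barcodes, so levels in members are descriptions without a test. Levels are given as UMIs per 1000000 UMIs (CPM) after the UMIs of a set of barcodes were summed, and shares and sums carry 95% intervals that cover counting error only.

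The study asked what the loss of the cytokine IL-26 changes in the gut at 5 days post-fertilization (dpf). The il26KO library came from larvae of il26-/- adults, which carry a deletion in il26 made with CRISPR/Cas9, and the WT library from larvae of wild-type (AB) adults. Those adults were clutchmates held in separate tanks, and the deletion is not limited to any cell type. For each genotype 50 guts were dissociated in 5 tubes of 10, pooled, and enriched for live cells on a density gradient. Each genotype thus had 1 library, so that genotype, tank and pool cannot be told apart and no difference between genotypes has a replicate check.

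The il26KO library held 122200924 UMIs and the WT library 125236138 UMIs over all barcodes. Kept barcodes numbered 3967 in il26KO and 5351 in WT, with medians of 14593 and 10355 UMIs and of 2886 and 2342 genes. The targeted gene il26 had no UMI in kept il26KO barcodes and 1 UMI in kept WT barcodes, which was too low to check the labels. The libraries had 11 kept barcode sequences in common, and none of them was a member.

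Squamous epithelia are flat surface layers that line body openings, such as the mouth, the oesophagus and the cloaca, and cover the skin. Their cells hold keratin filaments and are sealed by tight junctions. In mammals the outermost ones build a cornified envelope, of which cornifelin is a component. Zebrafish cnfn is named after cornifelin, tcnba encodes a transcobalamin that binds vitamin B12, and icn encodes ictacalcin, a calcium-binding S100 protein that is abundant in fish epidermis. hoxb13a belongs to the posterior Hox genes, which mark the hind end of the body axis.

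The members fell into sets of very unlike cnfn content. Barcodes with at least 1000 CPM of cnfn, or 0.1% of their UMIs, are called cnfn-rich below and the others cnfn-poor, a split that was chosen after the values had been seen. There were 38 cnfn-rich members in il26KO and 163 in WT, and 84 cnfn-poor members in il26KO and 94 in WT. Few members lay near the split: 9 in il26KO and 13 in WT had 200 to 1000 CPM of cnfn, and 6 in il26KO and 6 in WT had 1000 to 2000 CPM. A single UMI of cnfn was all that 64 il26KO members and 61 WT members had.

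**Figure D1:**
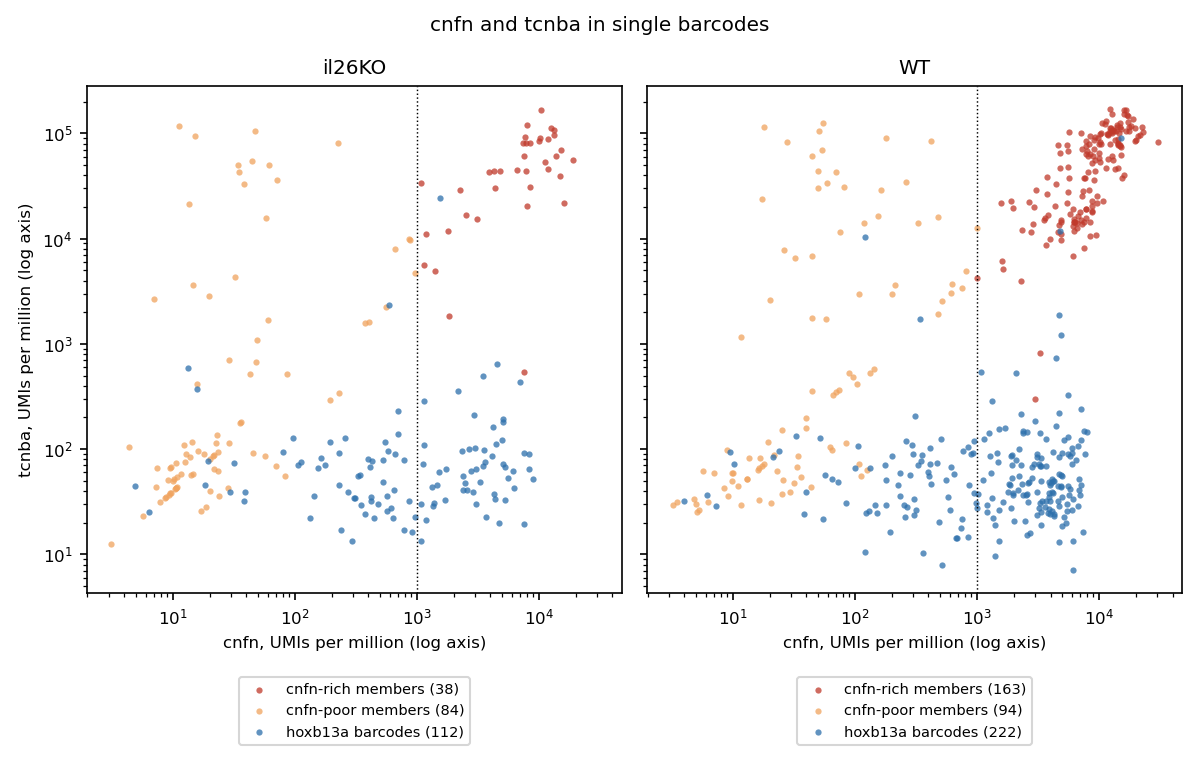
Level of tcnba against cnfn in each barcode, in CPM on log axes, for il26KO (left) and WT (right); each point is 1 barcode, and the dotted line marks 1000 CPM of cnfn. The 38 il26KO and 163 WT cnfn-rich members lie mostly at the upper right, the cnfn-poor members spread along the left, and most of the 112 il26KO and 222 WT barcodes with hoxb13a lie low in tcnba.

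As a set the cnfn-rich members carried the fixed markers at high levels. icn (ENSDARG00000009978) stood at 93906 CPM in il26KO and 87915 CPM in WT, against 2156 and 2681 CPM in the other kept barcodes, which are all kept barcodes that were not members. tcnba (ENSDARG00000068088) stood at 46680 and 63003 CPM, against 1660 and 1036 CPM. cnfn (ENSDARG00000041115) stood at 7568 and 9369 CPM, against 115 and 325 CPM. Single cnfn-rich barcodes ranged widely, with cnfn at a lowest, median and highest level of 1087, 7885 and 19060 CPM in il26KO, and of 1006, 8782 and 30210 CPM in WT. For tcnba the same values were 541, 44451 and 167659 CPM in il26KO, and 299, 56409 and 170481 CPM in WT. The ranges of the libraries thus overlapped. Some shallow barcodes qualified on few counts, the fewest cnfn UMIs being 1 in il26KO and 3 in WT. An il26KO barcode of 1644 UMIs had icn at 1825 CPM, below its level in the other kept barcodes.

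Of the markers that the rule did not use, gstp2 and s100a10b were also high. They were listed as markers with earlier results of these data known, so their levels are no separate check. gstp2 (ENSDARG00000103019), a glutathione S-transferase of the pi class, stood at 1838 CPM in il26KO and 2271 CPM in WT, against 135 and 70.9 CPM in the other kept barcodes. It had a UMI in 34 of 38 il26KO and 152 of 163 WT cnfn-rich members. s100a10b (ENSDARG00000025254), whose mammalian counterpart S100A10 binds annexin A2, stood at 3838 and 1646 CPM, against 111 and 81.3 CPM. It had a UMI in 36 of 38 and 159 of 163. Depth differed between these sets of barcodes, so cnfn-rich members and hoxb13a barcodes were also thinned to 1000 UMIs each, which left out 2 il26KO and 1 WT cnfn-rich members and 1 WT hoxb13a barcode. After thinning, gstp2 was seen in 80.6% of il26KO and 70.4% of WT cnfn-rich members (89.5% and 93.3% unthinned), against 2.68% and 0.905% of hoxb13a barcodes (18.8% and 29.3% unthinned). s100a10b was seen in 94.4% and 79.6% (94.7% and 97.5% unthinned), against 38.4% and 20.8% of hoxb13a barcodes (87.5% and 85.1% unthinned).

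As a set the cnfn-poor members did not share these levels, but single barcodes near the split did. In il26KO 1 of them had 878 CPM of cnfn, 9694 CPM of tcnba and 73702 CPM of icn. Another il26KO barcode, of 286445 UMIs, held 276 UMIs of cnfn and is part of the sums given next. The 5 fixed markers together made 10156 CPM in il26KO and 5611 CPM in WT cnfn-poor members, against 153830 and 164204 CPM in cnfn-rich members, 4176 and 4195 CPM in the other kept barcodes, and 8500 and 6643 CPM in barcodes of 10 to 100 UMIs, taken here as empty droplets. For cnfn itself the cnfn-poor level was 75.6 CPM in il26KO and 25.4 CPM in WT, below the 498 and 322 CPM of the empty droplets. Single cnfn-poor barcodes reached 964 CPM of cnfn in il26KO and 999.75 CPM in WT. Whether the cnfn UMIs of cnfn-poor members came from background RNA was not tested. The cnfn-poor members were deep, with medians of 68674 UMIs in il26KO and 35981.5 in WT against 18030 and 12411 in cnfn-rich members. The rule's limit of 5 UMIs was met exactly by 29 il26KO and 21 WT members, and 42 and 43 further barcodes met the rule in all but having 4 UMIs.

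Other genes set many cnfn-poor members apart. Markers of anterior or ileal enterocytes made at least 1% of the UMIs in 58 of 84 il26KO and 49 of 94 WT cnfn-poor members, against 4 of 38 and 7 of 163 cnfn-rich members. tcnba reached 1000 CPM in 25 il26KO and 38 WT cnfn-poor members, and 12 and 23 of those had a UMI of otop2, a proton channel gene of best4 enterocytes. Of the other cnfn-poor members 13 of 59 in il26KO and 18 of 56 in WT had a UMI of otop2. Barcodes with at least 5 UMIs of otop2 held tcnba at 1000 CPM or more in 69 of 139 in il26KO and 90 of 163 in WT, so high tcnba was also found in barcodes with otop2. Over all kept barcodes tcnba reached that level in 269 of 3967 in il26KO and 437 of 5351 in WT. The highest doublet scores were those of 126 of 3967 kept barcodes in il26KO and 229 of 5351 in WT. Among them were 4 of 84 il26KO and 10 of 94 WT cnfn-poor members, and 0 of 38 and 11 of 163 cnfn-rich ones. The name squamous-like is therefore checked below on the cnfn-rich members, and the 178 cnfn-poor ones are called by the rule only.

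A gene was counted as part of the program when its level in the set was at least 4-fold that in the other kept barcodes in both libraries. Over all members 98 of 14827 genes passed (0.661%), and over cnfn-rich members 352 of 9919 (3.55%). The lists had 85 genes in common, 86.7% of the 98 and 24.1% of the 352. Of the 25 leading genes of each, ranked by the lower of the 2 libraries' folds, 18 were the same. These folds describe what the chosen barcodes hold, since cnfn, tcnba and icn were used to choose them.

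**Figure D2:**
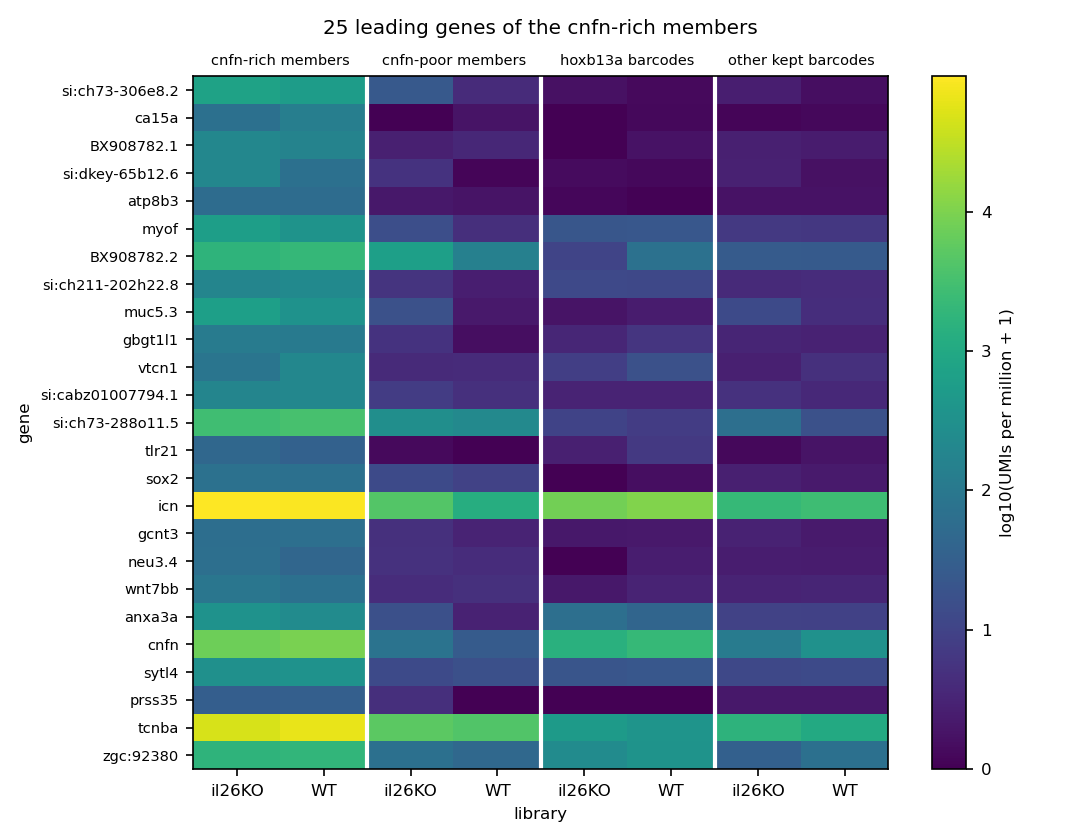
Levels of the 25 leading genes of the cnfn-rich members (rows, highest fold on top) in 4 sets of barcodes, il26KO left of WT in each, as log10 of CPM plus 1. The cnfn-rich columns are mostly brighter than the others, icn reaching 93906 CPM in il26KO and 87915 CPM in WT. Genes such as tlr21, at 45.4 and 34.1 CPM, lie low on the scale there too. The columns of hoxb13a barcodes are dark for most rows other than icn and cnfn.

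The leading genes named next are a choice among those with a known role, made after their values had been seen. muc5.3 (ENSDARG00000099470), a gel-forming mucin gene, stood at 630 CPM in il26KO and 336 CPM in WT cnfn-rich members, against 12.4 and 3.46 CPM in the other kept barcodes. Its median over single barcodes was 279 CPM in il26KO and 221 CPM in WT, and the highest values were 2885 and 2143 CPM. gcnt3, which branches the sugar chains of mucins, stood at 60.7 and 65.4 CPM, against 1.93 and 1.32 CPM. sytl4, a synaptotagmin-like regulator of vesicle release, stood at 317 and 347 CPM, against 10.8 and 12.3 CPM. myof, which encodes the membrane repair protein myoferlin, stood at 612 and 358 CPM, against 5.71 and 5.37 CPM.

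Further leading genes had other roles. ca15a, a carbonic anhydrase gene, stood at 66.9 CPM in il26KO and 133 CPM in WT, against 0.172 and 0.271 CPM. vtcn1, a ligand of the B7 family that restrains T cells in mammals, stood at 83.9 and 199 CPM, against 1.77 and 3.80 CPM. tlr21, a receptor for bacterial DNA, stood at 45.4 and 34.1 CPM, against 0.279 and 0.843 CPM. wnt7bb, a Wnt ligand gene, stood at 87.3 and 68.4 CPM, against 2.13 and 2.23 CPM.

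Several leading genes carry no functional name. The highest fold was that of ENSDARG00000097416, at 744 CPM in il26KO and 552 CPM in WT, against 1.62 and 0.500 CPM in the other kept barcodes. It was unevenly spread, with a UMI in 15 of 38 il26KO and 72 of 163 WT cnfn-rich members and a median of 0 CPM in both libraries. BX908782.2, at 1738 and 2053 CPM, and si:ch73-288o11.5, at 2782 and 3387 CPM, were more abundant and had a UMI in 29 of 38 and 141 of 163, and in 29 of 38 and 136 of 163. zgc:92380 was the most evenly spread of the unnamed ones given here, with a UMI in 36 of 38 and 158 of 163.

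Lists of genes fit for a surface epithelium show which parts of such a cell were high. Of 22 tight junction genes with at least 20 UMIs, 8 were in the program. The list counts here and below are read against the 3.55% of all genes tested that were in it. cldnb stood at 1778 CPM in il26KO and 1251 CPM in WT, against 119 and 150 CPM in the other kept barcodes, and cldnh at 1916 and 2032 CPM, against 185 and 360 CPM. In hoxb13a barcodes cldnh stood at 1784 and 2083 CPM, close to these levels, while oclnb stood at 61.8 and 55.8 CPM in cnfn-rich members and at 13.7 and 35.7 CPM in hoxb13a barcodes. Claudins and occludins form the seal between neighbouring cells.

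Of 18 S100 and annexin genes 7 were in the program. s100w stood at 481 CPM in il26KO and 518 CPM in WT, against 19.7 and 18.7 CPM in the other kept barcodes. anxa3a, a calcium-dependent membrane-binding protein, stood at 345 and 247 CPM, against 8.78 and 8.30 CPM. anxa5b stood at 509 and 384 CPM, against 26.9 and 38.9 CPM. icn is a member of this list and was used by the rule.

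Keratins were mixed, with 2 of 11 in the program, krt91 and krt1-c5. krt91 stood at 7891 CPM in il26KO and 7057 CPM in WT, against 709 and 1514 CPM, and at 4562 and 8156 CPM in hoxb13a barcodes. krt5, a keratin of the skin, stood at 9.64 and 1.34 CPM in cnfn-rich members, against 132 and 201 CPM in hoxb13a barcodes and 67.4 and 63.4 CPM in the other kept barcodes. krt15 stood at 5.1 and 15.0 CPM, against 249 and 2107 CPM in hoxb13a barcodes. Keratin genes are close relatives, and reads that they share could be divided among them. Of 10 desmosome genes 1 was in the program, pkp2, which encodes plakophilin 2, at 52.7 and 48.1 CPM against 9.05 and 8.83 CPM. Of the 5 cornified envelope genes tested only cnfn was in it, and scel, which encodes sciellin, stood at 47.6 and 7.68 CPM against 21.2 and 23.2 CPM. Since cnfn, tcnba and icn chose the barcodes, their levels are no check of the name squamous-like. The median log2 ratio of tested keratins over the other kept barcodes was -0.70 in il26KO and -1.96 in WT. The median tested keratin was thus lower than in the other kept barcodes. That median was 0.87 and 0.40 for desmosome genes and 1.19 and 0.35 for cornified envelope genes. For tight junction genes it was 2.04 and 1.72. The keratin, desmosome and cornified envelope counts are each of few tested genes and do not decide the name. The data held 23 keratins, 13 desmosome genes and 15 cornified envelope genes of these lists. Those not tested had too few UMIs in cnfn-rich members. No UMI was seen there for 6 keratins in il26KO and 6 in WT, and for 5 and 6 cornified envelope genes. For desmosome genes it was 1 and 1. Most listed cornified envelope genes were thus low or absent in these barcodes. What this says of the name was not tested. These barcodes are called cnfn-rich members here.

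Of 7 genes of mucosal secretion 3 were in the program, agr1, agr2 and muc5.3. agr2, whose protein folds mucins and which also marks goblet cells, stood at 2583 CPM in il26KO and 1463 CPM in WT, against 275 and 335 CPM in the other kept barcodes. Of 9 cobalamin genes, tcnba and its relative tcnbb were in it. tcnbb stood at 547 and 491 CPM, against 79.5 and 13.5 CPM. cubn and amn, which encode the receptor for the vitamin complex in the ileum, stood at 1.13 and 5.01 CPM and at 0.567 and 8.01 CPM, against 34.1 and 66.1 CPM and 38.7 and 49.0 CPM. tcnba and tcnbb are related in sequence, so their reads may be partly exchanged.

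Transcription factors gave the cnfn-rich members a profile unlike that of the hoxb13a barcodes. sox2, a factor of the foregut and oesophagus, stood at 71.4 CPM in il26KO and 66.8 CPM in WT, against 1.78 and 1.28 CPM in the other kept barcodes. The hoxb13a barcodes held 0 UMIs of sox2 in il26KO, for which a floor of 3 counts gives 0.641 CPM, and 0.510 CPM in WT. nkx2.1, a factor of the thyroid and, in mammals, the lung, stood at 16.4 and 25.7 CPM in cnfn-rich members, against 0.0214 and 0.0104 CPM in the other kept barcodes. Kept barcodes that were not members held 3 UMIs of nkx2.1 in both libraries together. Both factors belong to a list of 13 pharynx and oesophagus transcription factors. Only 4 of these had at least 20 UMIs in cnfn-rich members, and 2 were in the program. For 6 of the 13 in il26KO and 4 in WT no UMI was seen there.

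pdx1, a factor of the pancreas and duodenum that was added to the named genes after its values had been seen, stood at 178 CPM in il26KO and 298 CPM in WT. In barcodes thinned to 1000 UMIs it was seen in 25% of il26KO and 23.5% of WT cnfn-rich members (76.3% and 73.6% unthinned), against 0.893% and 1.36% of hoxb13a barcodes (25.9% and 28.4% unthinned). foxa2, an endoderm factor, stood at 69.2 and 37.7 CPM, against 5.88 and 4.72 CPM in the other kept barcodes. The program held 1 of the 12 gut endoderm transcription factors tested in cnfn-rich members. foxq1b stood at 124 and 82.8 CPM, against 15.7 and 13.6 CPM. tp63, which maintains the basal cells of stratified epithelia, stood at 42.5 and 24.7 CPM, against 6.92 and 6.22 CPM. In thinned barcodes it was seen in 5.56% of il26KO and 1.85% of WT cnfn-rich members (34.2% and 19.6% unthinned). In cnfn-poor members thinned alike it was seen in 2.38% and 5.32% (21.4% and 16.0% unthinned). tp63 was 1 of 4 among 13 squamous transcription factors in the program.

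The intestinal factor cdx1b was low, at 2.83 CPM in il26KO and 6.34 CPM in WT cnfn-rich members, against 85.3 and 71.8 CPM in the other kept barcodes. Its relative cdx1a went the other way, at 95.2 and 89.1 CPM in cnfn-rich members, against 33.3 and 35.3 CPM. Among the Hox genes of the anterior and middle body, hoxb1b stood at 32.9 and 28.4 CPM, against 3.83 and 3.41 CPM. The list as a whole did not follow hoxb1b, and the program held 1 of its 8 tested genes. Their median log2 ratio over the other kept barcodes was 0.37 in il26KO and -1.56 in WT. Summed, the list stood at 211 and 124 CPM, against 202 and 274 CPM. The hoxb13a barcodes held cdx1b at 76.5 and 54.6 CPM, cdx1a at 8.12 and 11.8 CPM, and hoxb1b at 3.85 and 2.29 CPM.

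**Figure D3:**
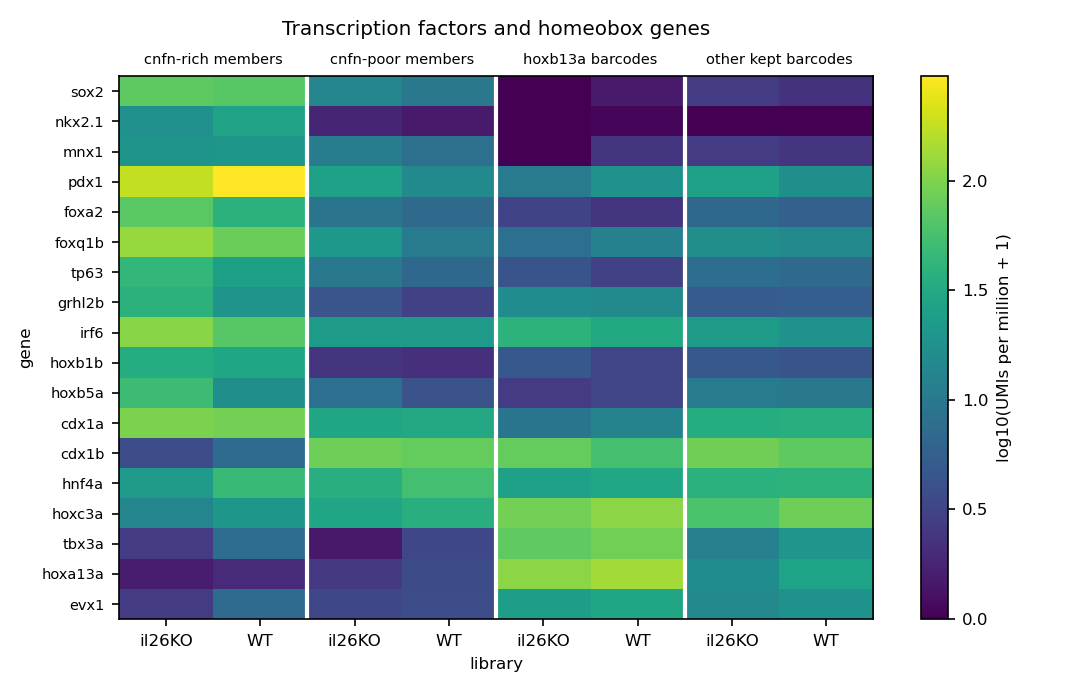
Levels of 18 transcription factor genes (rows) in 4 sets of barcodes, il26KO left of WT in each, as log10 of CPM plus 1. sox2, at 71.4 CPM in il26KO and 66.8 CPM in WT cnfn-rich members, nkx2.1, pdx1, foxa2 and hoxb1b are bright in the cnfn-rich columns, and tbx3a, hoxa13a and evx1 in the hoxb13a columns.

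Posterior Hox genes were compared without hoxb13a, which the rule used. The 5 other genes of group 13 had 2 UMIs in il26KO and 8 in WT cnfn-rich members, or 1.13 CPM (interval 0.137 to 4.10) and 2.67 CPM (1.15 to 5.26). They stood at 217 CPM (203 to 230) in il26KO and 234 CPM (225 to 243) in WT hoxb13a barcodes, and at 36.9 and 54.7 CPM in the other kept barcodes. Group 13 genes are known to be expressed together, so this difference is partly set by the rule. Over all 25 other genes of the posterior list, which also holds evx1, cdx4 and cdx1a, the members held 101 CPM in il26KO and 87.1 CPM in WT, against 526 and 553 CPM in hoxb13a barcodes. cdx1a gave most of what remained in cnfn-rich members.

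Barcodes that met the same limits but had hoxb13a numbered 112 in il26KO and 222 in WT. cnfn stood at 7568 and 9369 CPM in il26KO and WT cnfn-rich members, against 1450 and 2114 CPM there, and icn at 93906 and 87915 CPM, against 8333 and 10697 CPM. The cnfn gap is partly set by the split, which was not applied to the hoxb13a barcodes. Of these, 55 in il26KO and 145 in WT had at least 1000 CPM of cnfn and held it at 3364 and 3608 CPM. tcnba was far apart, with 6.17 UMIs per UMI of cnfn in il26KO and 6.72 in WT cnfn-rich members. This ratio was 0.359 and 0.175 in all hoxb13a barcodes. In those at the same cnfn limit, chosen after seeing the data, it was 0.373 and 0.0993. In il26KO 1 barcode held 2136 of the 2231 tcnba UMIs at that limit, and the highest WT hoxb13a barcode held 2018 tcnba UMIs. The hoxb13a barcodes were deeper, with medians of 31462 UMIs in il26KO and 35506 in WT. Of all kept barcodes with at least 1000 CPM of cnfn, 160 in il26KO and 414 in WT, 38 and 163 were members and 100 and 230 had hoxb13a.

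Thinned to 1000 UMIs, aqp3a, a water and glycerol channel gene named after its values had been seen, was found in 80.6% of il26KO and 45.7% of WT cnfn-rich members (94.7% and 90.2% unthinned), against 7.14% and 10.9% of hoxb13a barcodes (16.1% and 24.3% unthinned). agr2 was found in 80.6% and 65.4% (97.4% and 89.6% unthinned), against 19.6% and 24.4% (83.0% and 83.3% unthinned). muc5.3 was found in 30.6% and 21.0% (73.7% and 68.7% unthinned), against 0 of 112 and 0 of 221 barcodes (3.57% and 5.41% unthinned). A count of 0 after thinning allows detection at 1000 UMIs per barcode in up to 3.24% and 1.66% of these barcodes by the exact binomial interval.

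Members made up 3.08% of kept barcodes in il26KO (122 of 3967, interval 2.56 to 3.66) and 4.80% in WT (257 of 5351, 4.25 to 5.41). The log2 ratio of il26KO over WT was -0.64 (-0.97 to -0.33). The cnfn-rich members carried this difference, at 0.958% in il26KO (0.679 to 1.31) and 3.05% in WT (2.60 to 3.54), a log2 ratio of -1.67 (-2.22 to -1.15). The cnfn-poor members were 2.12% and 1.76%, with a log2 ratio of 0.27 (-0.17 to 0.71), whose interval includes 0. Thus 31.1% of il26KO members and 63.4% of WT members were cnfn-rich.

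The cnfn-rich difference was of like size at either depth. Of kept barcodes with at least 5000 UMIs, 28 of 2940 in il26KO and 111 of 3815 in WT were cnfn-rich (0.952% and 2.91%), a log2 ratio of -1.61. Below 5000 UMIs it was 10 of 1027 and 52 of 1536, a log2 ratio of -1.80. hoxb13a barcodes were also fewer, at 2.82% in il26KO and 4.15% in WT, with a log2 ratio of -0.56 (-0.90 to -0.22). Each share comes from 1 pool of guts, so how much dissection or dissociation moved it was not tested.

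**Figure D4:**
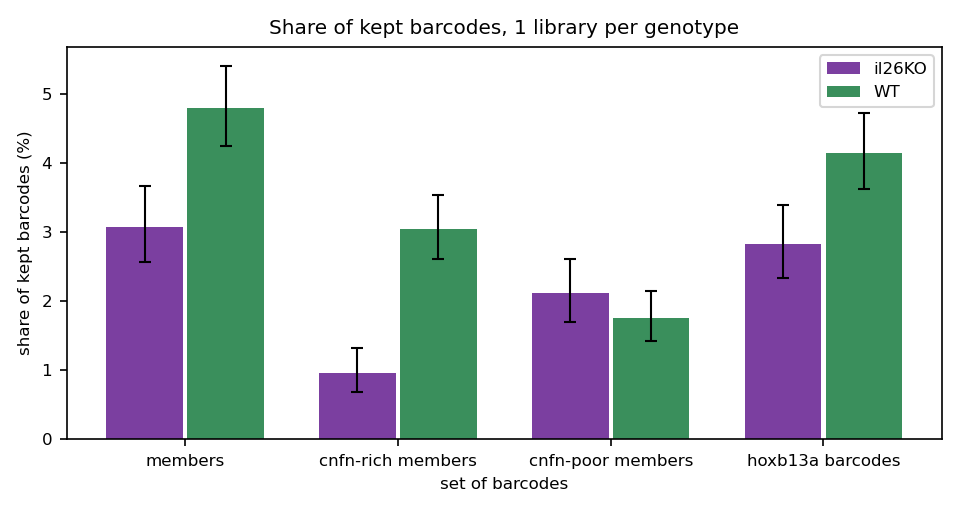
Share of kept barcodes in percent, il26KO (purple) left of WT (green), for 4 sets of barcodes; bars are 1 library each and error bars are exact binomial 95% intervals for counting error. cnfn-rich members were 0.958% in il26KO and 3.05% in WT, while the intervals of the cnfn-poor members, at 2.12% and 1.76%, overlap.

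Differences in level between il26KO and WT were read as folds only. A gene was called when it was at least 2-fold apart, among genes with at least 20 UMIs over both libraries. Over all members 1178 of 14827 genes were higher (7.94%) and 568 lower (3.83%) in il26KO. The median gene stood at a log2 ratio of 0.24. Median-of-ratios scaling, which brings the median gene to about 0, gave 688 higher and 844 lower of the same 14827 genes. The excess of higher genes thus depends on the scaling. Because 31.1% of il26KO and 63.4% of WT members were cnfn-rich, the sets compared differ in make-up. Exocrine pancreas markers summed to 13.8 CPM in il26KO members and 6142 CPM in WT members, with 10 of 10 genes called lower. Over single members they had a median of 0 CPM and a highest value of 680 CPM in il26KO, and a median of 106.5 CPM and a highest value of 459744 CPM in WT. In empty droplets the same markers stood at 354 and 10154 CPM. The log2 ratio was -8.78 from summed UMIs and -6.90 with equal weight, and the part of these markers in the counts above was not tested.

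Within the cnfn-rich members 1103 of 9919 genes were higher (11.1%) and 515 lower (5.19%) in il26KO, with the median gene at 0.23. A single barcode of 410914 UMIs held 23.3% of all il26KO UMIs in this set, against 4.02% for the deepest WT barcode. Without the deepest barcode of each library 720 genes were higher and 582 lower, among those that still had at least 20 UMIs. Where a pair of values follows a ratio within cnfn-rich members below, the first leaves out those 2 barcodes and the second gives equal weight to every barcode.

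The 10 highest and 10 lowest genes, taken with limits on how few barcodes may hold them, had little in common between the sets. None of the 10 highest and 1 of the 10 lowest, aste1a, was the same for all members and for cnfn-rich members. Over all members the highest were ponzr6, CR855277.3, cyp27a1.4, si:dkey-69o16.5, iqsec3a, eys, zgc:113625, il1rapl1a, si:dkeyp-100h4.1 and esyt1b, with log2 ratios between 2.14 and 3.30. si:dkey-69o16.5 was the most abundant, at 536 CPM in il26KO and 91.3 CPM in WT. The cnfn-poor members held 4283 of its 4309 il26KO UMIs and 807 of its 819 WT UMIs. This gene was also higher in the other kept barcodes, with a log2 ratio of 2.36, and in empty droplets, with 2.01. The lowest were ntrk3b, aste1a, ucp3, si:dkey-21a6.5, si:ch211-213a13.2, ENSDARG00000093349, MEP1B, podxl, plod3 and aif1l, with log2 ratios between -3.20 and -1.86. MEP1B, named after an intestinal brush border protease, stood at 38.3 CPM in il26KO and 152 CPM in WT. It too was lower in the other kept barcodes and in empty droplets, at -1.10 and -1.81. The cnfn-poor members held 305 of its 308 il26KO UMIs and 1350 of its 1362 WT UMIs, so these 2 ratios do not describe the cnfn-rich members.

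In cnfn-rich members the highest were zgc:153911, CT030188.1, fat2, zgc:86896, rpz5, hyou1, hhla2a.1, capn2l, trib1 and hoxb5a. capn2l, a calpain protease gene, stood at 142 CPM in il26KO and 40.4 CPM in WT, a log2 ratio of 1.81 (1.5 to 2.14). It was 1.83 without the deepest barcodes and 1.46 with equal weight, against 0.35 in the other kept barcodes. In empty droplets capn2l stood at 37.4 and 2.69 CPM. hyou1, a chaperone of the endoplasmic reticulum, stood at 46.5 and 11.7 CPM, a log2 ratio of 1.97 (1.40 to 2.61), and at 1.96 and 1.24 in those settings. fat2, which encodes an atypical cadherin, stood at 44.8 and 10.7 CPM, a log2 ratio of 2.04, with 2.33 and 0.73. hoxb5a, a Hox gene of the middle body, stood at 48.8 and 16.0 CPM, a log2 ratio of 1.59 (1.08 to 2.15), with 1.74 and 0.82. It had a UMI in 14 of 38 il26KO and 27 of 163 WT barcodes.

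The lowest in cnfn-rich members were CELA1 (1 of many), BX548028.1, prss1, aste1a, CU682777.2, zgc:172079, rbp4, pglyrp5, gda and s100a10a. CELA1 and prss1 are digestive enzyme genes of the exocrine pancreas. prss1 stood at 4.54 CPM in il26KO and 44.7 CPM in WT, and at 79.7 and 2028 CPM in the empty droplets of each library. s100a10a (ENSDARG00000037425) stood at 480 and 2311 CPM, a log2 ratio of -2.27 (-2.37 to -2.17), with -1.95 without the deepest barcodes and -1.30 with equal weight. Over single barcodes its median was 565 CPM in il26KO and 1090 CPM in WT, and the highest were 5949 and 19463 CPM, so the libraries overlapped. It stood at 2254 and 2940 CPM in the other kept barcodes.

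The related s100a10b was at the opposite side, at 3838 CPM in il26KO and 1646 CPM in WT, a log2 ratio of 1.22 (1.17 to 1.27). It was 1.32 without the deepest barcodes and 1.32 with equal weight. The lowest, median and highest values were 0, 3390 and 9950 CPM in il26KO and 0, 1556 and 5128 CPM in WT. s100a10a and s100a10b are close relatives, and how the counting divided reads that match both is not given in the sources used here. pglyrp5, a peptidoglycan recognition protein gene, stood at 15.3 and 78.1 CPM, a log2 ratio of -2.31, with -1.93 and -2.98. It had UMIs in 18.4% of il26KO and 27.0% of WT barcodes, and 1 barcode held 55.6% of its il26KO UMIs.

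Other cell types' RNA also differed in these barcodes. Summed exocrine pancreas markers stood at 17.6 CPM in il26KO and 198 CPM in WT cnfn-rich members, and at 354 and 10154 CPM in empty droplets, with 8 of 9 genes tested called lower. Markers of ileal or lysosome-rich enterocytes stood at 250 and 2503 CPM, a log2 ratio of -3.32, with -3.24 and -0.30. Over single barcodes their median was 348 CPM in il26KO and 540 CPM in WT. Markers of smooth muscle stood at 13.6 and 430 CPM, a log2 ratio of -4.93, with -4.85 and -3.17. Some of this lay in few WT barcodes: 1 of them held 87.0% of the acta2 UMIs and 1 held 79.1% of the fabp6 UMIs. Markers of anterior enterocytes differed less, at 3335 and 3841 CPM. Goblet cell markers were higher in il26KO, at 2770 and 1639 CPM, a log2 ratio of 0.76, with 0.84 and 1.28, and agr2 made most of that sum. Over single barcodes these markers had a median of 2375 CPM in il26KO and 1350 CPM in WT. The highest values were 45300 and 5212 CPM, so 1 il26KO barcode weighs strongly on the equal-weight value. Skeletal muscle markers stood at 54.4 and 19.7 CPM, a log2 ratio of 1.46, with 1.5 and 3.33, and 2 of 3 genes tested were called higher, mylpfa and tnnt3b. The part of such RNA in the ratios of single genes was not tested.

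The fixed markers other than s100a10b differed by less than 2-fold between cnfn-rich members of the libraries. tcnba was lower in il26KO, at a log2 ratio of -0.43 (-0.44 to -0.42), and at -0.39 and -0.15 without the deepest barcodes and with equal weight. cnfn was lower at -0.31 (-0.34 to -0.28), with -0.31 and -0.29. icn stood at 0.10 (0.09 to 0.10), with 0.18 and 0.11, and gstp2 at -0.30 (-0.37 to -0.24), with -0.04 and 0.21 in the other settings. For sox2 the log2 ratio was 0.10 (-0.24 to 0.43), with 0.17 and 0.23, and for nkx2.1 -0.61 (-1.31 to -0.01), with -0.54 and -1.68. pdx1 stood at -0.74, with -0.85 and -0.52.

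By list, basal epidermis genes, squamous transcription factors and mucosal secretion genes stood above 0.23, the median gene of the summed counts, in all 3 settings. Without the deepest barcodes the median gene stood at 0.15. With equal weight the median gene of cnfn-rich members is not given here. The equal-weight values are therefore not read against a median of their own setting. Basal epidermis genes summed to 306 CPM in il26KO and 169 CPM in WT cnfn-rich members, a log2 ratio of 0.86 (0.68 to 1.04), with 0.95 and 0.49 in the other settings. Of 6 genes tested the median was 0.77, and cldni alone was called higher (16.7%, against 11.1% of all genes), with a UMI in 6 of 38 and 4 of 163 barcodes.

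Squamous transcription factors summed to 1768 CPM in il26KO and 1104 CPM in WT cnfn-rich members, a log2 ratio of 0.68 (0.61 to 0.75), with 0.61 and 0.57 in the other settings. Of the 13 tested the median was 0.64, and 3 were called higher (23.1%, against 11.1% of all genes) and none lower. Among them klf6a, an early response zinc finger factor, stood at 507 and 218 CPM, a log2 ratio of 1.22, with 1.13 and 0.90, and grhl2b, a grainyhead factor of epithelia, at 38 and 18 CPM, a log2 ratio of 1.07, with 1.03 and 0.53. Mucosal secretion genes summed to 3424 and 2083 CPM, a log2 ratio of 0.72 (0.67 to 0.77), with 0.79 and 1.00. agr2, with 2583 and 1463 CPM and a log2 ratio of 0.82 that was 0.94 and 1.39 in the other settings, and muc5.3, at 0.91, with 0.85 and 0.58, made most of this sum. Neither was 2-fold apart from summed UMIs, and 1 of the 7 genes, pglyrp5, was called lower (14.3%, against 5.19% of all genes). The median of the 7 genes was -0.28, opposite in sign to the sum. Over single barcodes the list had a median of 2789 CPM in il26KO and 2006 CPM in WT. Its highest values were 45300 and 6249 CPM, so 1 il26KO barcode weighs strongly on the equal-weight value. agr2 is in the goblet cell list too, which stood at 0.76, and the part of goblet cell RNA in this sum was not tested.

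The other lists are read against the same 11.1% and 5.19% of all genes. Of 8 anterior and middle Hox genes 4 were called higher (50%) and none lower, with a median of 0.99, hoxb5a, hoxb5b, hoxb7a and hoxb8a. The list summed to 211 CPM in il26KO and 124 CPM in WT, a log2 ratio of 0.77 (0.56 to 0.98), with 0.62 without the deepest barcodes, and it turned to -0.27 with equal weight. Of 13 periderm genes, those of the outer skin layer of the embryo, 4 were called higher (30.8%) and none lower, krt5, krt1-19d, evpla and cldne, with a median of 0.55. The periderm sum, most of it icn, stood at 0.13, with 0.20 and 0.11.

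Of 11 keratins 4 were called higher (36.4%) and 1 lower (9.09%), with a median of 0.53. krt18a.1 stood at 1580 CPM in il26KO and 691 CPM in WT, a log2 ratio of 1.19, with 1.23 and 0.79, whereas krt94 stood at 1.57 and turned to -2.54 without the deepest barcodes and -3.25 with equal weight. Of 22 tight junction genes 2 were higher and 2 lower (9.09% each), with a median of 0.14. cldn15la, a claudin of enterocytes, stood at 470 and 1570 CPM, a log2 ratio of -1.74, with -1.45 and -0.62. Of 18 S100 and annexin genes 4 were higher (22.2%) and 1 lower (5.56%), with a median of 0.36. Among them was anxa2a, whose mammalian counterpart binds S100A10, at 257 and 103 CPM, a log2 ratio of 1.31, with 1.59 and 1.21. In cornified envelope genes 2 of 5 were higher. scel stood at 47.6 and 7.68 CPM, a log2 ratio of 2.59, with 2.23 and 3.21, and evpla at 21.0 and 5.34 CPM, a log2 ratio of 1.92, with 2.04 and 1.34. Of 36 glutathione and redox genes 1 was higher and 1 lower (2.78% each), and of 12 gut endoderm transcription factors likewise 1 and 1 (8.33% each). Of 10 desmosome genes 1 was higher, evpla again, and of 9 cobalamin genes 1 was lower, amn.

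The receptor of IL-26 in mammals pairs IL20RA with IL10RB and signals through JAK and STAT proteins. il20ra stood at 9.64 CPM in il26KO and 10.7 CPM in WT cnfn-rich members, a log2 ratio of -0.11 (-1.09 to 0.74), with -0.37 and -0.78, against 26.8 and 20.8 CPM in the other kept barcodes. il10rb stood at 27.2 and 28.0 CPM, a log2 ratio of -0.03 (-0.59 to 0.49), with -0.08 and -0.50. The 21 genes of this list together had a log2 ratio of -0.02 (-0.12 to 0.07), with -0.28 and -0.37 in the other settings. Of the 16 tested none was called, with a median of -0.07. socs3a, a target of STAT3, stood at 268 and 307 CPM. These intervals do not show that the genes were alike.

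Of 13 inflammatory and interferon genes 6 were called higher (46.2%, against 11.1% of all genes) and 3 lower (23.1%, against 5.19%) in il26KO cnfn-rich members, with a median of 0.72. The chemokine gene cxcl8b.1 stood at 32.3 CPM in il26KO and 5.01 CPM in WT, a log2 ratio of 2.62, with 2.92 and 1.70, while its relative cxcl8a stood at 27.8 and 79.5 CPM, a log2 ratio of -1.49, with -1.39 and 0.98. Both rested on few barcodes: cxcl8b.1 had a UMI in 5 of 38 and 5 of 163, and cxcl8a in 4 of 38 and 4 of 163, with 84.2% and 75.5% of their il26KO UMIs in 1 barcode. The highest value of the list, 4.73 for ccl19a.1, had 98.8% of its il26KO UMIs in 1 barcode and was -0.79 without the deepest barcodes and 2.16 with equal weight. isg15, an interferon-induced gene, stood at 3.61, with 1.09 and 0.51.

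The study looked for proliferation and DNA damage in il26KO guts, so genes of S phase, of G2/M and of the DNA damage response were read as lists. In cnfn-rich members the S phase list stood at 611 CPM in il26KO and 472 CPM in WT, a log2 ratio of 0.37 (0.25 to 0.49), with 0.54 and 0.16 in the other settings, against a median gene of 0.23. Of 26 genes tested 3 were called higher (11.5%, near the 11.1% of all genes) and none lower, with a median of 0.36. mcm5, part of the replicative helicase, stood at 39.7 and 15.0 CPM, a log2 ratio of 1.39, with 1.72 and 1.99. The G2/M list stood at 182 and 159 CPM, a log2 ratio of 0.20 (-0.01 to 0.41), and was -0.12 without the deepest barcodes and -1.76 with equal weight. Of 16 genes tested 3 were higher (18.8%) and 1 lower (6.25%), with a median of -0.28.

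The DNA damage list stood at 1562 CPM in il26KO and 1457 CPM in WT cnfn-rich members, a log2 ratio of 0.10 (0.03 to 0.17), with 0.09 and 0.03. Of 26 genes tested 4 were higher (15.4%, against 11.1% of all genes) and 2 lower (7.69%, against 5.19%), with a median of 0.13. mdm2, which encodes the p53 inhibitor and is itself a p53 target, stood at 55.0 and 13 CPM, a log2 ratio of 2.06 (1.53 to 2.65), with 2.31 and 2.14. It had a UMI in 18 of 38 il26KO and 23 of 163 WT barcodes, and 1 il26KO barcode held 40.2% of its il26KO UMIs. cdkn1a, another p53 target, stood at 109 and 96.5 CPM, a log2 ratio of 0.18 (-0.10 to 0.44), with 0.12 and 0.14. sesn1, which encodes sestrin 1, stood at 24.4 and 63.8 CPM, a log2 ratio of -1.36, with -1.54 and -2.01. These targets of p53 thus did not differ in 1 direction.

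Over all members the G2/M list stood higher, at 339 CPM in il26KO and 156 CPM in WT, a log2 ratio of 1.12 (1.03 to 1.21), with 20 of 37 genes called higher (54.1%, against 7.94% of all genes) and none lower, with a median of 1.07. Given equal weight per barcode the list turned to -0.78. The list stood at 383 and 155 CPM in cnfn-poor members, against 182 and 159 CPM in cnfn-rich members. ube2c, which tags mitotic proteins for breakdown, stood at 39.4 and 7.87 CPM in cnfn-poor members, against 9.07 and 7.01 CPM in cnfn-rich members, and mki67, a proliferation marker, at 26.3 and 15.9 CPM, against 23.2 and 10.7 CPM. The S phase list stood at 0.65 (0.59 to 0.71) over all members with 5 of 31 genes called higher (16.1%), and the DNA damage list at 0.06 (0.02 to 0.10) with 3 of 35 higher (8.57%). Of 15 posterior Hox genes 6 were called higher over all members (40%, against 7.94% of all genes) and none lower. That list summed to a log2 ratio of 0.22 (0.08 to 0.36) over all members, and stood at -0.01 with equal weight. In cnfn-rich members it stood at -0.12 (-0.39 to 0.14), and of 2 genes tested 0 were called higher and 1 lower.

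**Figure D5:**
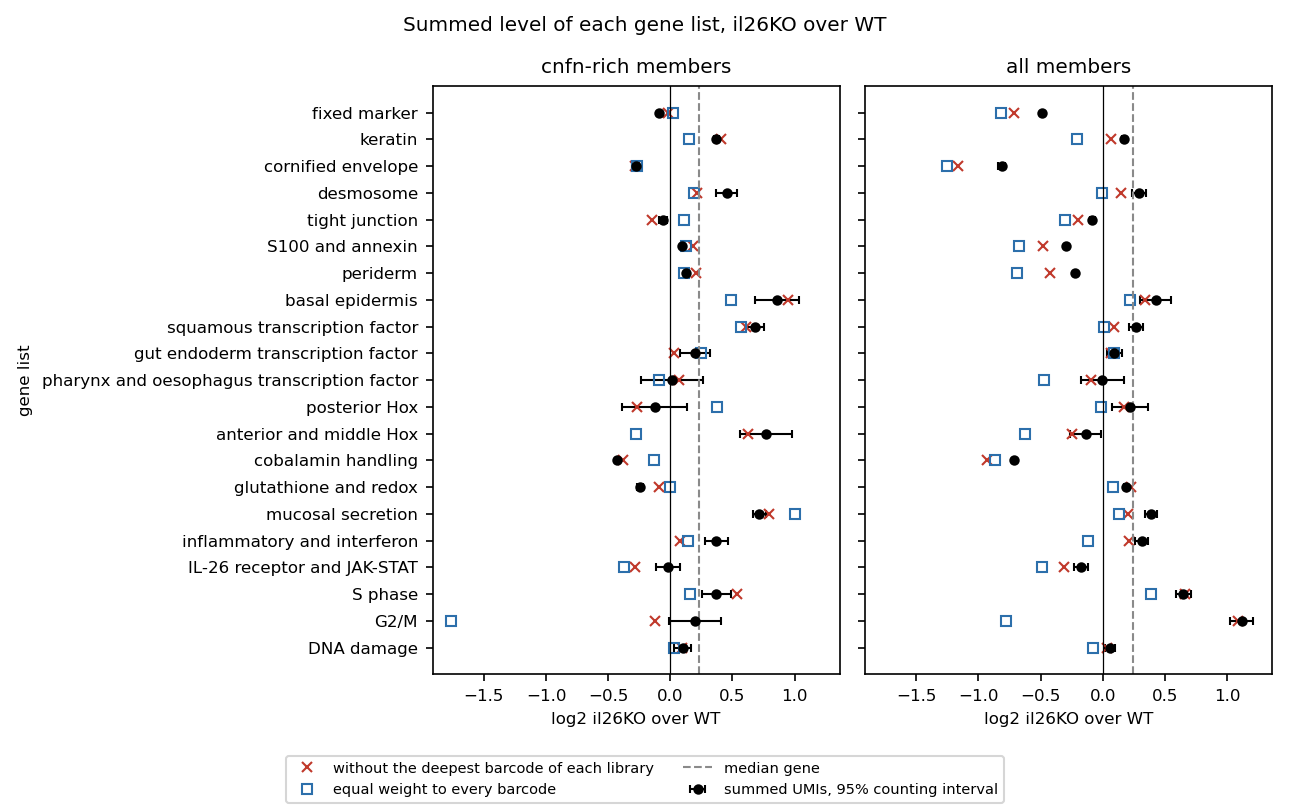
Log2 ratio of il26KO over WT for the summed UMIs of each gene list in cnfn-rich members (left) and all members (right). Black points carry 95% counting intervals, crosses leave out the deepest barcode of each library, and open squares weight every barcode equally. The dashed line is the median gene of the summed counts. In cnfn-rich members the G2/M list lies at 0.20, -0.12 and -1.76 in those settings, while squamous transcription factors lie at 0.68, 0.61 and 0.57.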

How the data were processed

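Cells of pooled larval guts were captured in droplets (10x Genomics 3′ chemistry) in 1 library per genotype. The files the authors deposited hold raw UMI counts of every barcode. Their headers name Cell Ranger 7.1.0, and the submitters' processing notes name build danRer11. The annotation release and the handling of intronic reads are not given in the sources used here. The deposited counts cover 27771 features with 27056 symbols, counts of features with the same symbol were summed, and barcodes had not been filtered to cells. Gene names are those of the features, and no coordinates are given.

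Members and gene lists were chosen with earlier results of these data known. Counts were summed per library and set of barcodes, with Python 3.11.15, numpy 2.4.6, scipy 1.17.1 and pandas 2.3.3. Scripts were checked on simulated data. Ratios were formed for genes with at least 20 UMIs, after 1 UMI had been added in each library. Shares carry exact Clopper-Pearson intervals, sums exact Poisson ones and ratios exact conditional ones. With 1 library per genotype no test was made. Doublets were not removed: Scrublet in scanpy 1.11.5 called 2 il26KO and 1 WT barcodes by its automatic threshold and so did not work, and the highest scores, 0.8% per 1000 kept barcodes, were left out as an alternative.

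Named genes were the markers, the list genes, the 25 highest folds of members over other kept barcodes (at least 50 UMIs and 20% of members in each library), and the 10 highest and 10 lowest il26KO over WT ratios (at least 100 UMIs, detected in 10% of members, and at most 25% of UMIs in 1 barcode, in the library where they are higher). The rule was repeated on cnfn-rich members after their values had been seen. Of the alternatives, those on cnfn-rich members were chosen after seeing the data.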

Additional observations from a re-analysis of the deposited data

How the results depend on the processing

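No paired analysis was possible because each genotype had 1 library, and no replicate could be left out. The log2 ratio of the members' share kept its direction in all alternatives. It was -1.16 with at least 10 UMIs of cnfn and tcnba, -1.24 with both at 0.1% of UMIs, -1.67 in cnfn-rich members and -1.61 in those with at least 5000 UMIs, and between -0.71 and -0.52 in the others. The alternatives on cnfn-rich members were chosen after seeing the data.

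Of the same 14827 genes tested over all members, 688 were higher in il26KO with median-of-ratios scaling and 2021 with equal weight per barcode. With equal weight 1400 were lower. The other settings changed the number of genes tested, so their counts cannot be compared as they stand. Higher genes numbered 720 in cnfn-rich members without the deepest barcodes, 666 with at least 50 UMIs per gene and 3614 with no minimum. Lower genes numbered 301 with at least 50 UMIs and 1680 with no minimum. The program held 195 genes with at least 10 UMIs of the pair and 295 with 0.1% of UMIs. It held 352 of 9919 genes in cnfn-rich members and 352 in those with at least 5000 UMIs. The number of genes tested was not the same across these settings either.

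The S phase list stood at 0.84 with at least 10 UMIs of the pair, 0.72 with 0.1% of UMIs, 0.50 with hoxb13a not used, 0.37 in cnfn-rich members, 0.39 in those with at least 5000 UMIs, 0.54 without the deepest barcodes, 0.41 with median-of-ratios scaling and 0.39 with equal weight. In the same order the G2/M list stood at 1.60, 1.77, 0.74, 0.20, 0.48, -0.12, 0.88 and -0.78, so it turned negative in 2 settings. The DNA damage list stood at 0.13 with at least 10 UMIs, -0.11 with hoxb13a not used, 0.10 in cnfn-rich members and 0.10 in those with at least 5000 UMIs, -0.18 with median-of-ratios scaling, -0.074 with equal weight and 0.0077 with at most 10% mitochondrial UMIs. Posterior Hox genes in members over hoxb13a barcodes stood at -2.54 in il26KO with at least 2 UMIs of hoxb13a, against -2.37 with 1, and at -2.28 in WT cnfn-rich members, against -2.67 in all WT members. The cause of these shifts was not tested. Counted over all alternatives, the results given above in this section moved in 39 cases and did not move in 49. In 2 further cases a ratio of at least 2-fold changed sign. Smaller ratios that changed sign, such as those of the DNA damage list, were not counted apart. For the il26KO over WT ratios of the remaining gene lists 158 values moved and 58 did not. Ratios of single genes were not part of these counts. Counts of 38 il26KO barcodes limit every ratio within cnfn-rich members.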

Other observations

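mnx1 and sftpba, added to the named genes after their values had been seen, were high in few cnfn-rich members. mnx1, a homeobox factor, stood at 18.1 CPM in il26KO and 19.4 CPM in WT, and 1 barcode of each library held 56.2% and 51.7% of it. sftpba, named after surfactant protein B, stood at 46.5 and 63.1 CPM, with UMIs in 5 of 38 and 28 of 163 cnfn-rich members, and 1 barcode held 72.0% and 36.5% of it.

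Of the 163 WT cnfn-rich members 52 had fewer than 5000 UMIs and 111 had at least 5000. The shallower ones held hmgb2a, a chromatin protein gene, at 824 CPM against 238 CPM, hmgn2 at 1269 against 366 CPM, and her9, a Notch-related repressor gene, at 594 against 244 CPM. They also held more enterocyte RNA, with chia.2 at 378 against 74.1 CPM and fabp1b.1 at 623 against 128 CPM. Both of these are abundant in WT empty droplets, at 4027 and 6866 CPM.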
